A study of Mus musculus with 5 samples.

Results

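The insulin-like growth factor binding proteins (IGFBPs) and the proteins that control their cleavage were followed as 10 genes, found by symbol out of 51912 genes listed in the tables. They are the binding proteins Igfbp2, Igfbp3, Igfbp4, Igfbp5, Igfbp6 and Igfbp7, the acid-labile subunit Igfals, the proteases Pappa and Pappa2, and the protease inhibitor Stc2. RNA was measured in the dorsolateral prostate of male mice aged 3 months, in 2 libraries labelled Ghr deletion and 3 control libraries. Mice of the Ghr deletion group had the genotype Ghrflox/flox;ROSA26Cre-ERT2+/0, so a tamoxifen-activated Cre is made from ROSA26, a locus active in most cells of the body, and is not limited to the prostate. Control mice were Ghrflox/flox without Cre, so the loxP-flanked alleles were shared by both groups. Both groups were given tamoxifen at 250 mg/kg each day for 5 days, with collection 1 month after the last dose. No group of mice with Cre but without floxed alleles was among the samples analysed here, so effects of Cre and of Ghr loss cannot be told apart. The samples are called biological replicates in the study's design text.

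In extracellular fluid most IGF is held by binding proteins, which carry it, protect it and keep it from its receptor. Igfbp2 to Igfbp6 bind IGF with high affinity, while Igfbp7 binds it weakly. Proteases of the pappalysin family, Pappa and Pappa2, cut some of the binding proteins and so release IGF next to cells, and stanniocalcin 2, encoded by Stc2, blocks pappalysins. In the liver, growth hormone acts through its receptor and the transcription factor STAT5 to raise Igf1 and Igfals, and the acid-labile subunit completes the large complex that carries IGF with Igfbp3 or Igfbp5 in blood. In the prostate, IGF and its binding proteins are known as signals exchanged between stroma and epithelium.

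Promoter sequences are shown for Igfals, a gene that growth hormone acts on through STAT5 in liver, and for the pair of binding proteins whose balance is described below. All are from RefSeq on GRCm38.p6 and run from 250 bases before to 50 bases after an annotated start. RefSeq windows were matched for 9 of the 10 genes, with 12 windows in all. The letters TTCNNNGAA, the form of site that STAT5 binds, were searched on both strands and occurred in 2 of the 12 windows, both of Igfals, against 8.3% of the 32851 windows of all genes. The first match began at position -236 and the second at position -58, counted from the start site. The 2 windows, on the plus strand at chr17:24877594-24877893 and chr17:24877981-24878280 with the match in capitals, were as follows.
Igfals, upstream window: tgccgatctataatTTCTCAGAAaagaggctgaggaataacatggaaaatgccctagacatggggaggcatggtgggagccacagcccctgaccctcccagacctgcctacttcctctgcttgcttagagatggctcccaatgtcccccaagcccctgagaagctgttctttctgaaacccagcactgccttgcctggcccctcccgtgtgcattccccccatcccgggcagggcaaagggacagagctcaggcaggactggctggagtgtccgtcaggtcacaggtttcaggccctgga
Igfals, downstream window: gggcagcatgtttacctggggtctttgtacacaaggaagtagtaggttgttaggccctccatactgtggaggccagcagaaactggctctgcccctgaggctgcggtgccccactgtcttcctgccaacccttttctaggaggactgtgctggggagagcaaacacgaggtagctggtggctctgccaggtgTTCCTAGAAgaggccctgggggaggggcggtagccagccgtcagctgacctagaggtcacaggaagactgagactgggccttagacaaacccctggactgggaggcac
Both windows lie inside the gene span that GENCODE release M21 gives for Igfals.

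Igfbp7 and Igfbp5 were the pair with the highest levels, and their promoters differ in GC boxes, written GGGCGG and searched on both strands. The Igfbp7 window held 4 and the Igfbp5 window held 0, and 35.7% of all windows held at least 1. Both genes lie on the minus strand, and the windows, at chr5:77407996-77408295 for Igfbp7 and chr1:72874816-72875115 for Igfbp5, are given in gene direction with GC boxes in capitals.
Igfbp7: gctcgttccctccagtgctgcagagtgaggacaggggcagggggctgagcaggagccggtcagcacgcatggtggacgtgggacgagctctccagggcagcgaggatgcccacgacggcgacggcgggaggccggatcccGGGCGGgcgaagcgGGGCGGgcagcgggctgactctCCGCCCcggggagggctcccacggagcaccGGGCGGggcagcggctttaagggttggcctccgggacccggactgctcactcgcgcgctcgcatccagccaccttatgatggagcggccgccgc
Igfbp5: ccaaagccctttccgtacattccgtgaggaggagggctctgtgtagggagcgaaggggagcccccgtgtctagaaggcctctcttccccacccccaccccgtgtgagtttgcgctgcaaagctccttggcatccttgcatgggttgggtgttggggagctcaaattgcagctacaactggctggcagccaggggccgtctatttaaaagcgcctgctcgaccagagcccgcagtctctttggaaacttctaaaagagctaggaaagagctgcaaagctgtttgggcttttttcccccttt
No searched motif contains another. A match is a run of letters and does not show that a factor binds there. Of the other motifs searched, TATAAA was in the Igfbp4 and Igfbp6 windows (13.6% of all windows), and AGAACA, a site that steroid receptors bind, was in 1 Igfbp2 window and 1 Igfals window (19.0% of all windows).

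The libraries differed in ways that bear on every value below. They held 31740687 and 32782683 expected counts in libraries labelled Ghr deletion, against 19517831, 29705618 and 41553558 in control replicates 1 to 3. Ghr had 21.5 and 10.2 CPM (counts scaled to library size, with TMM factors) in libraries labelled Ghr deletion, against 10.1, 11.8 and 13.2 CPM in controls, so its level was not lower under the deletion label. The Ghr count covers the whole gene, and reads over its loxP-flanked part were not counted apart, so it does not show whether the deletion took place. Directions below are those of the labels. The 6 markers of distal luminal prostate epithelium summed to 1.34 and 178 CPM in libraries labelled Ghr deletion, against 2981, 3128 and 5.6 CPM in controls. Most of the sum in control replicate 1 was Spink1, with 0 and 0.53 CPM, against 2937, 892 and 1.43 CPM in controls. Most of it in Ghr deletion replicate 2 was Tgm4, with 0.749 and 162 CPM, against 17.9, 1604 and 2.93 CPM. The order of control replicate 1 and Ghr deletion replicate 2 thus differed between Spink1 and Tgm4. For Pbsn, which encodes the prostate secretory protein probasin, the values were 0.0454 and 8.76 CPM against 11.1, 475 and 0.816 CPM, so this defining marker was near 0 in Ghr deletion replicate 1 and control replicate 3. The 8 seminal vesicle genes summed to 104999 and 183272 CPM, against 451761, 234412 and 234784 CPM in controls. Of these 8 genes, 6 were lower with no overlap of the groups (12.5% of all genes were), 5 had an unadjusted p under 0.05 and 0 passed the test, and the median log2 fold change was -7.48. Svs1, a seminal vesicle secretory gene, had 0.0454 and 7.90 CPM, against 32915, 22520 and 58.6 CPM in controls. Svs1 and Svs3a would not have passed the filter on low counts without the controls, so for them the filter favoured this separation. Reads were split between Svs3a and Svs3b, which are therefore not independent in the count of 6. The part of this uneven tissue make-up in the results was not tested.

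Of the 10 genes, 9 passed the filter on low counts and 0 passed in either direction when edgeR's quasi-likelihood p was adjusted over 18590 genes (threshold 0.05). Over all genes the same test called 0.0% higher and 0.0% lower. For none of the 9 tested members did the groups separate, whereas they separated in 10.8% of all genes tested on the higher side and in 12.5% on the lower side. On the log2 scale 3 of the 9 fold changes were above 0, against 49.4% over all genes, and their median was -0.19, against -0.01 over all genes. At an unadjusted p under 0.05 there were 0 of the 9, against 1.16% of all genes higher and 3.10% lower. DESeq2 and limma-voom also called 0 members, while DESeq2 called 0.108% of all genes higher and 0.328% lower. At an unadjusted p under 0.05 they also gave 0 members, against 1.43% of genes higher and 5.27% lower by DESeq2 and 1.36% higher and 2.22% lower by limma-voom. With control replicates 1 and 2 both left out, edgeR again called 0 members, but that choice was made once the data had been seen and keeps 1 control library. Without control replicate 3, edgeR called 0.082% of genes higher and 0.18% lower, and 0 members.

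**Figure D1:**
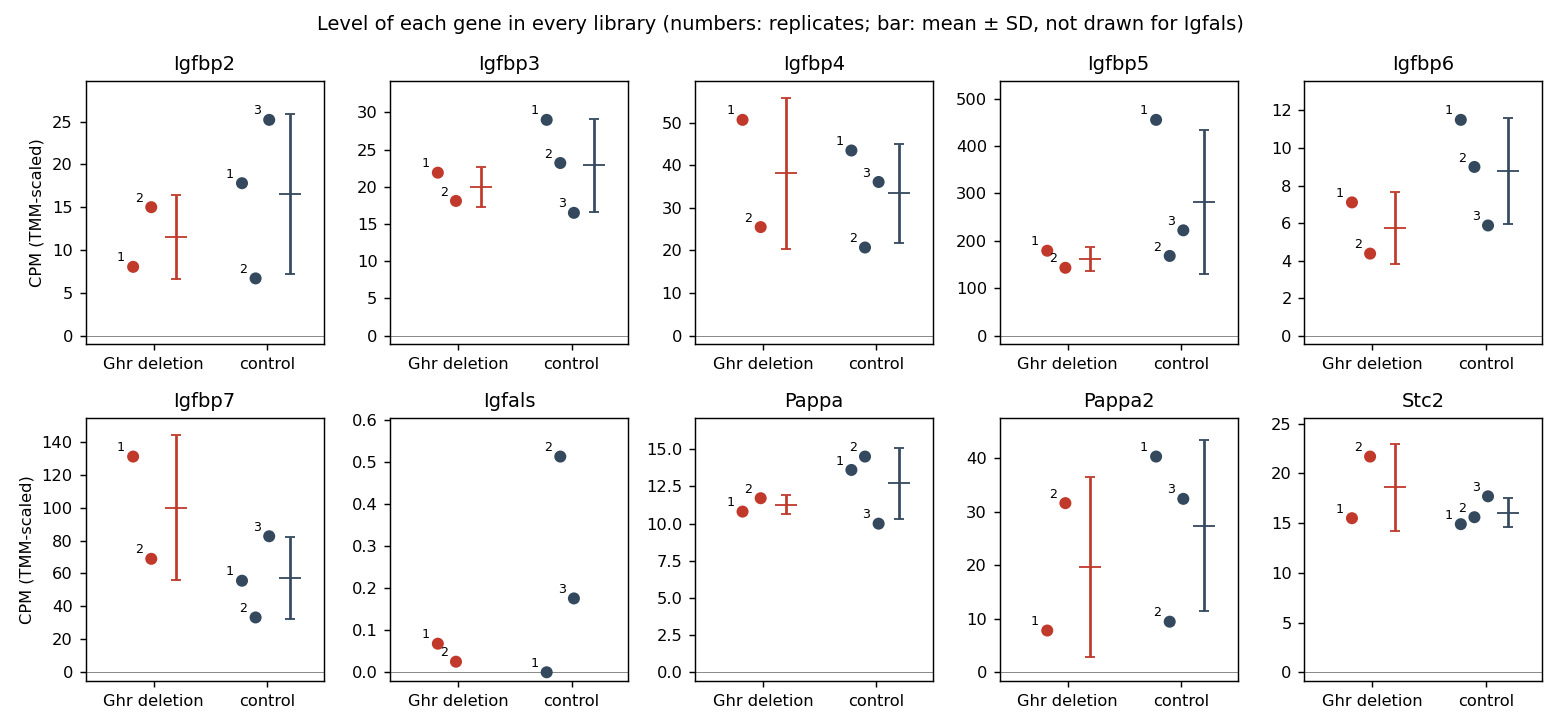
Level of each of the 10 genes in CPM (vertical axes from near 0, a separate scale for each gene) in the 2 libraries labelled Ghr deletion and the 3 control libraries, with replicate numbers beside the points and mean ± SD beside each group except for Igfals. The groups overlap in every panel, as for Igfbp7, with 131 and 68.9 CPM in libraries labelled Ghr deletion against at most 82.6 CPM in controls.

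Levels can be compared between genes in TPM, which is per length. By TPM the binding proteins lay above the proteases. Igfbp7 was the highest of the 10 genes in 4 of 5 libraries and ranged from 6.56 to 165 TPM. Igfbp5 was second over the libraries, with 5.29 to 34.9 TPM, and was above Igfbp2, the next gene, in 5 of 5 libraries. Igfbp2 and Igfbp4 could not be put in order, since Igfbp2 was the higher in 3 of 5 libraries. Igfbp4 was above Igfbp3, and Igfbp3 above Igfbp6, in 5 of 5 libraries. Igfbp6 was above Stc2 in 4 of 5 libraries. Stc2 was above Pappa2 in 3 of 5, so these are not ordered either, and Pappa2 was above Pappa in 5 of 5. Pappa had at most 1.12 TPM and Igfals at most 0.05 TPM. Part of the range of each TPM value follows the whole library, because TPM is a share of all RNA in it: the summed TPM of Igfbp2 to Igfbp7 was 249 and 118 in libraries labelled Ghr deletion, against 81.9, 19.0 and 110 in controls.

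Igfbp7, a secreted protein of vessels and smooth muscle that binds IGF weakly (ENSMUSG00000036256, GRCm38 chromosome 5, 77349240 to 77408041, minus strand), had the largest positive difference of the 9 tested genes. It had 131 and 68.9 CPM in libraries labelled Ghr deletion, against 55.6, 33.3 and 82.6 CPM in control replicates 1 to 3. Ghr deletion replicate 1 was the highest library and control replicate 3 lay above Ghr deletion replicate 2, so the groups overlapped. The SDs were 43.9 CPM (n = 2) in libraries labelled Ghr deletion and 24.7 CPM (n = 3) in controls, and the fitted fold was 1.75. On the log2 scale the change was 0.81 (SE 0.45, 95% interval -0.30 to 1.91), and edgeR's adjusted p was 0.874. It became 0.27 when Ghr deletion replicate 1 was left out and 1.2 when Ghr deletion replicate 2 was. The 3' end of Igfbp7 overlaps the end of Polr2b on the opposite strand, and the strandedness of the counting was not given, so their reads cannot be told apart there.

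Igfbp5, which is bound to matrix and regulates IGF locally (ENSMUSG00000026185, chromosome 1, 72857932 to 72874884, minus strand), had the largest negative difference. It had 179 and 143 CPM in libraries labelled Ghr deletion, against 455, 168 and 222 CPM in controls. Control replicate 1 stood far above the other 4 libraries, and control replicate 2 had a value between those of the other group. The means were 161 ± 26.0 CPM (SD, n = 2) and 282 ± 152 CPM (SD, n = 3). The log2 fold change was -0.81 (SE 0.47, 95% interval -1.97 to 0.35), and edgeR's adjusted p was 0.874. Leaving out control replicate 1 gave a log2 fold change of -0.28.

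The make-up of the binding protein transcripts does not depend on how libraries are scaled to each other, so each gene's share of the summed TPM of Igfbp2 to Igfbp7 was taken within each library. Igfbp7 held 66.3% and 54.2% in libraries labelled Ghr deletion, against 30.3%, 34.6% and 49.0% in controls. Igfbp5 held 14.0% and 17.5%, against 38.6%, 27.9% and 20.3% in controls. Both shares separated the groups, with means of 60.2% ± 8.54 (SD, n = 2) against 38.0% ± 9.81 (SD, n = 3) for Igfbp7 and 15.7% ± 2.46 (SD, n = 2) against 29.0% ± 9.21 (SD, n = 3) for Igfbp5. The exact two-sided permutation test gave p = 0.2 for each, which is the smallest value that 2 against 3 libraries allow. Of 7 such comparisons of shares and ligand ratio, none could reach a p under 0.05. Without control replicate 1 the difference in the Igfbp5 share was -8.38 percentage points, against -13.2 with all libraries. Shares of 1 total are not independent, so a higher Igfbp7 share lowers the others.

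**Figure D2:**
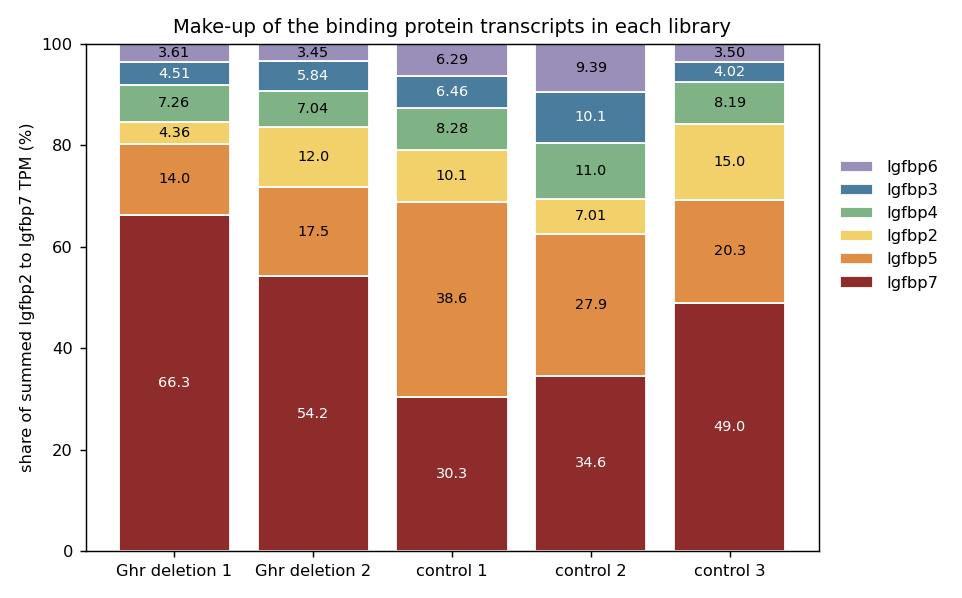
Share of the summed TPM of Igfbp2 to Igfbp7 (vertical axis, percent) held by each gene in each of the 5 libraries, with the values printed in the bars. Igfbp7 holds 66.3% and 54.2% in libraries labelled Ghr deletion and at most 49.0% in controls, and control replicate 3 is the control nearest to them.

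The ratio of Igfbp7 to Igfbp5 in TPM, chosen after the values were seen and so given without a test, was 4.74 and 3.10 in libraries labelled Ghr deletion, against 0.784, 1.24 and 2.41 in controls. With expected counts divided by 1 mean effective length per gene it was 4.68 and 3.10, against 0.784, 1.27 and 2.39. Control replicate 3 lay nearest to the libraries labelled Ghr deletion in this ratio. It did so in the summed distal luminal markers too, a sum that was mostly Spink1 in control replicate 1. Without control replicates 1 and 2 together, the difference in the Igfbp7 share was 11.2 percentage points, against 22.3 with all libraries. When Igfbp7 was left out of the total, the Igfbp5 share was 41.5% and 38.1%, against 55.4%, 42.7% and 39.9% in controls, and the groups overlapped.

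Markers of the cells known to make Igfbp7 are given beside it. The 8 endothelial markers summed to 171 and 113 CPM in libraries labelled Ghr deletion, against 136, 95.8 and 126 CPM in controls, and the 8 smooth muscle markers to 6642 and 7227 CPM, against 5895, 2385 and 8104 CPM. The 10 fibroblast markers summed to 3313 and 1455 CPM, against 1463, 949 and 2630 CPM. No marker on these 3 lists had 0 counts in any library, 0 of them passed the test, and their part in the Igfbp7 values was not tested. Of 7 adipocyte markers tested, 6 were higher with no overlap of the groups, against 10.8% of all genes, and 0 passed the test. Of these, Adipoq, Lep, Cidec and Plin1 passed the low-count filter only through the libraries labelled Ghr deletion. For them the filter favoured this separation, so the count of 6 is not evidence of a difference. The summed level of the 8 listed adipocyte genes, with Plin4 the most abundant, was 63.3 and 105 CPM, against 43.8, 43.8 and 84.7 CPM. The defining adipocyte gene Adipoq had 1.23 and 0.328 CPM, against 0, 0.103 and 0.11 CPM in controls. Myeloid markers summed to 133 and 72.0 CPM, against 114, 56.0 and 78.7 CPM, and basal epithelial markers to 98.9 and 83.8 CPM, against 102, 101 and 101 CPM. The 4 luminal epithelial markers summed to 1804 and 1087 CPM, against 1833, 1113 and 1174 CPM. The part of these cells in the members' values was not tested. In bulk tissue, fewer cells of a type and less RNA per cell cannot be told apart.

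Igfbp2, a binding protein of many epithelia and of fluids (ENSMUSG00000039323, chromosome 1, 72824503 to 72852474, plus strand), had 8.03 and 15.0 CPM in libraries labelled Ghr deletion, against 17.8, 6.68 and 25.2 CPM in controls. Control replicates 2 and 3 were the lowest and the highest of the 5 libraries, so the controls spanned the other group. Its log2 fold change of -0.53 had an SE of 0.58, with an adjusted p of 0.881 by edgeR. It was -0.09 without control replicate 3 and -1.05 when Ghr deletion replicate 2 was left out. Igfbp2 and Igfbp5 are neighbours that face each other tail to tail, with 5458 bases between their ends, but their library orders differed: Igfbp2 was highest in control replicate 3 and Igfbp5 in control replicate 1.

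Igfbp3, the main carrier of IGF in blood (ENSMUSG00000020427, chromosome 11, 7206086 to 7213923, minus strand), was among the steadier members. It had 21.9 and 18.1 CPM in libraries labelled Ghr deletion, against 29.0, 23.2 and 16.5 CPM in controls. The libraries labelled Ghr deletion lay inside the control range, and the highest library was 1.75 times the lowest. The log2 fold change was -0.19 (SE 0.29, 95% interval -0.89 to 0.51), and edgeR's adjusted p was 0.903. Leaving out control replicate 1 gave a log2 fold change of 0.01.

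Igfbp4, an inhibitory binding protein and a substrate of Pappa (ENSMUSG00000017493, chromosome 11, 99041244 to 99054392, plus strand), had 50.7 and 25.5 CPM in libraries labelled Ghr deletion, against 43.5, 20.7 and 36.1 CPM in controls. All 3 controls were below Ghr deletion replicate 1, and 2 of them were above Ghr deletion replicate 2. Its fitted log2 change was 0.19 (SE 0.42), with an adjusted p of 0.933 by edgeR, and its sign turned to -0.39 without Ghr deletion replicate 1 and to -0.06 without control replicate 2. The Igfbp4 share of binding protein TPM was 7.26% and 7.04%, against 8.28%, 11.0% and 8.19%. That separation rested on the isoform lengths, since the difference of -2.02 percentage points became 0.0258 with 1 mean effective length for the gene.

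Igfbp6, which prefers IGF2 over IGF1 (ENSMUSG00000023046, chromosome 15, 102144362 to 102149511, plus strand), had 7.10 and 4.37 CPM in libraries labelled Ghr deletion, against 11.5, 8.99 and 5.87 CPM in controls. Control replicates 1 and 2 were the highest libraries, and control replicate 3 had a value between those of the other group. Its log2 fold change was -0.61 (SE 0.39, 95% interval -1.57 to 0.35), and edgeR's adjusted p was 0.874.

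**Figure D3:**
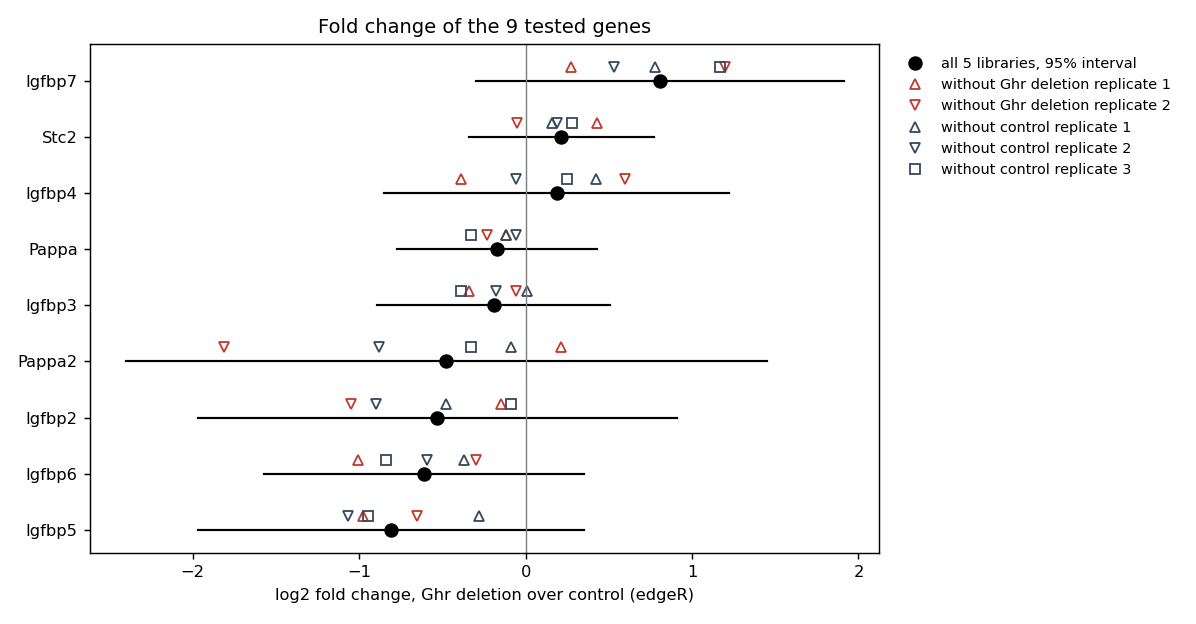
Log2 fold change of the libraries labelled Ghr deletion over the control libraries (horizontal axis) for the 9 tested genes by edgeR, with all 5 libraries (filled circles with 95% intervals) and with 1 library left out (open symbols). Every interval includes 0, and the open symbols of Igfbp7 (0.27 to 1.2) stay above 0 while those of Igfbp5 (-1.07 to -0.28) and Igfbp6 (-1.01 to -0.30) stay below it.

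Of the 9 tested members the proteases had the lowest median TPM (2.95 for Pappa2 and 0.54 for Pappa), and Pappa was steady between libraries while Pappa2 was the most variable in CPM. Pappa, which cuts Igfbp4 and Igfbp5 (ENSMUSG00000028370, chromosome 4, 65124174 to 65357509, plus strand), had 10.8 and 11.7 CPM in libraries labelled Ghr deletion, against 13.6, 14.5 and 9.99 CPM in controls. These values lay close together, with the highest library 1.46 times the lowest, and the log2 fold change was -0.17 (SE 0.24, 95% interval -0.77 to 0.43; adjusted p = 0.895 by edgeR). Pappa2, which cuts Igfbp3 and Igfbp5 (ENSMUSG00000073530, chromosome 1, 158711727 to 158980490, minus strand), had 7.80 and 31.6 CPM, against 40.3, 9.45 and 32.4 CPM in controls. Its libraries fell far apart within both groups, with Ghr deletion replicate 1 and control replicate 2 low and the other 3 high, and the highest was 5.16 times the lowest. On the log2 scale its change was -0.48 (SE 0.78, 95% interval -2.40 to 1.45; adjusted p = 0.912 by edgeR). It became 0.21 when Ghr deletion replicate 1 was left out and -1.81 when Ghr deletion replicate 2 was.

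The same 2 libraries were the lowest for Igfbp2 and for Pappa2, although the genes are on different parts of chromosome 1. The ratio of Pappa2 to Pappa counts was 0.724 and 2.69 in libraries labelled Ghr deletion, against 2.97, 0.650 and 3.25 in controls, so the groups overlapped and the balance of the proteases differed widely among mice of each group. Pappa2 is annotated with 6 transcripts in the tables, from 439 to 9518 bases. Its mean transcript length, weighted by estimated isoform abundance, was 6337 and 6928 bases in libraries labelled Ghr deletion, against 5726, 6232 and 5638 bases in controls. Both values lay above each control, and the TPM of Pappa2 depends on this estimate. For no other member did the mean lengths separate the groups, and the share of all genes with such a separation was not computed. Igfbp4 also varied, with mean lengths of 3370 and 2782 bases against 2795, 1998 and 2561 bases, and these overlapped.

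Stc2, the inhibitor of pappalysins (ENSMUSG00000020303, chromosome 11, 31357307 to 31370074, minus strand), had 15.5 and 21.7 CPM in libraries labelled Ghr deletion, against 14.9, 15.6 and 17.7 CPM in controls. Ghr deletion replicate 2 was the highest library and Ghr deletion replicate 1 lay among the controls. The log2 fold change was 0.21 (SE 0.23, 95% interval -0.34 to 0.77), and edgeR's adjusted p was 0.88. Leaving out Ghr deletion replicate 2 gave a log2 fold change of -0.05. Counts of Pappa and Pappa2 together were 1.2 and 2.0 times those of Stc2 in libraries labelled Ghr deletion, against 3.62, 1.54 and 2.39 times in controls.

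Igfals, the acid-labile subunit gene (ENSMUSG00000046070, chromosome 17, 24865997 to 24882010, plus strand), whose promoter windows above hold the STAT5-type letters, was at the edge of detection and did not pass the filter. It had 3 and 1 counts in libraries labelled Ghr deletion, against 0, 10 and 8 counts in controls. The exact 95% Poisson intervals were 0.619 to 8.77 and 0.0253 to 5.57 counts, against 0 to 3.69, 4.8 to 18.4 and 3.45 to 15.8 counts. Control replicate 1, the shallowest library, had the fewest, and its 0 counts make the groups overlap. The counts summed to 4 in libraries labelled Ghr deletion and 18 in controls. In CPM the other 4 libraries had 0.0681 and 0.0252, against 0.514 and 0.176 in control replicates 2 and 3. In edgeR's fit without the low-count filter, the log2 fold change of Igfals was -2.15 (SE 1.42, 95% interval -5.35 to 1.05; adjusted p = 0.847 over 29440 genes). The Poisson intervals cover counting error only.

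Liver-type transcripts are given beside Igfals, since the liver is its main source. Of 8 liver genes tested, for 7 each control exceeded both values of the other group, as was the case for 12.5% of all genes, and 0 passed the test over all genes. Serpina1a, Serpina1c, Ttr, Apoa1 and Fgb passed the low-count filter only through the controls. For them the filter favoured this separation, so the count of 7 is not evidence of a difference. The summed level of the 8 liver genes was 5.90 and 3.28 CPM in libraries labelled Ghr deletion, against 12.0, 34.9 and 12.4 CPM in controls. Those with the smallest p were Serpina1c, a protease inhibitor gene with near-identical copies among which reads may be split, at 0 and 0 CPM, against 0.617, 2.67 and 0.419 CPM, and Apoa1, an apolipoprotein, at 0.0227 and 0.126 CPM, against 0.926, 1.03 and 0.397 CPM. Alb, which encodes serum albumin and is the defining liver gene, had 2.2 and 0.177 CPM, against 7.16, 24.0 and 6.64 CPM. Its log2 fold change was -3.39 with SE 1.17, and edgeR's adjusted p was 0.874. Control replicate 2 was the highest library for Igfals and for the liver list. The remaining liver gene was Cyp2e1, a drug-metabolising enzyme, with 2.99 and 2.62 CPM, against 1.6, 1.59 and 1.92 CPM. The part of liver-type RNA in the Igfals counts was not tested.

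**Figure D4:**
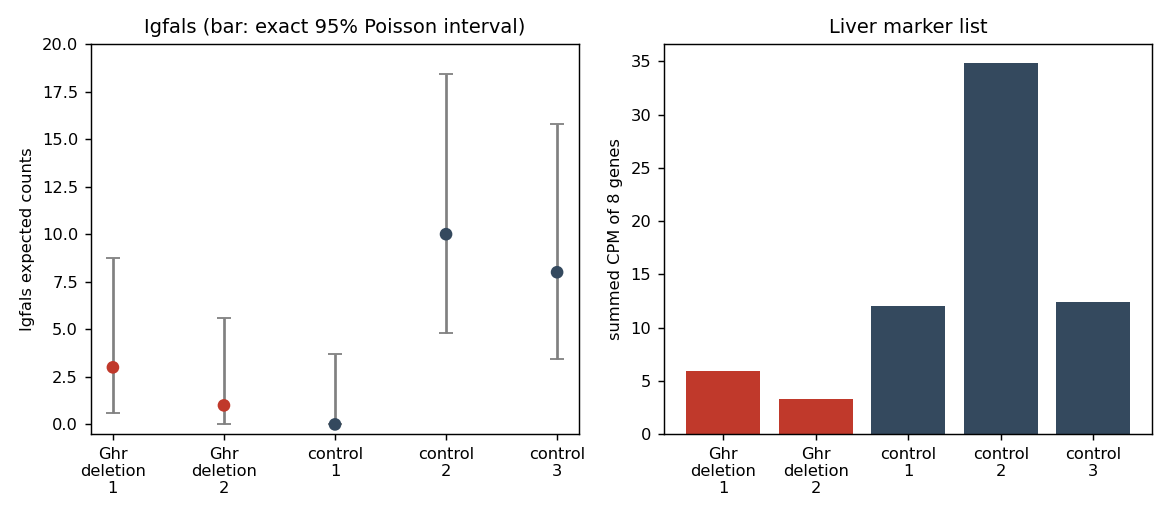
Expected counts of Igfals with exact 95% Poisson intervals (left, vertical axis in counts) and the summed CPM of 8 liver genes (right) in each library. Igfals ranges from 0 to 10 counts, and the liver genes sum to 5.90 and 3.28 CPM in libraries labelled Ghr deletion, below each control.

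The ligands, Igf1 and Igf2, are set beside their binding proteins within each library. The summed TPM of Igf1 and Igf2 was 8.0% and 6.21% of that of Igfbp2 to Igfbp7 in libraries labelled Ghr deletion, against 5.58%, 4.75% and 6.54% in controls (exact two-sided permutation p = 0.4). Set against the high-affinity Igfbp2 to Igfbp6 alone, it was 23.7% and 13.5%, against 8.0%, 7.26% and 12.8%, with means of 18.6% ± 7.19 (SD, n = 2) and 9.36% ± 3.02 (SD, n = 3). That ratio separated the groups, with Ghr deletion replicate 2 and control replicate 3 close together, and its exact permutation p was 0.2, the smallest possible. With 1 mean effective length per gene it was 22.1% and 13.9%, against 8.46%, 7.33% and 12.5%. Igf1 made up most of the ligand level, with 18.4 and 6.44 TPM, against 4.31, 0.72 and 6.47 TPM in controls. Igf2 had 1.54 and 0.88 TPM, against 0.26, 0.18 and 0.71 TPM. In CPM both overlapped between the groups. Igf1 had 89.8 and 43.8 CPM, against 61.2, 20.7 and 58.9 CPM (log2 fold change 0.51, SE 0.54; edgeR's adjusted p was 0.88). Igf2 had 2.47 and 2.83 CPM, against 2.28, 2.72 and 3.11 CPM (log2 fold change -0.03, SE 0.33; edgeR's adjusted p was 0.983).

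**Figure D5:**
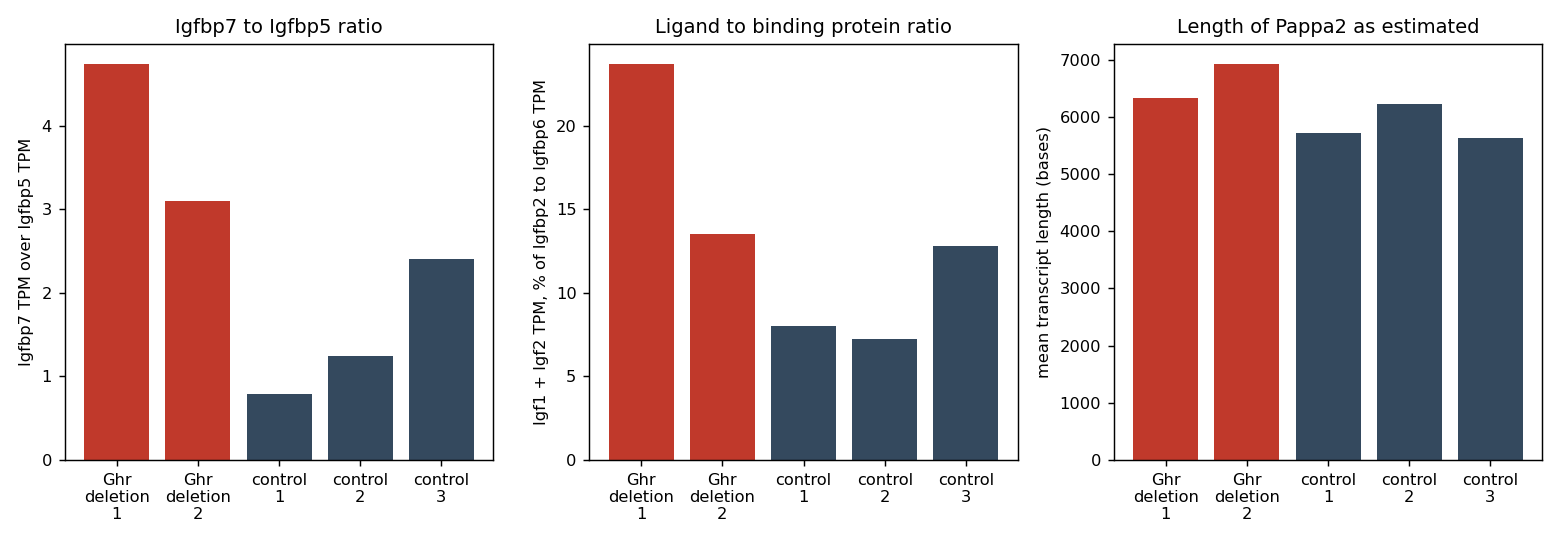
Within-library quantities for each of the 5 libraries: the ratio of Igfbp7 to Igfbp5 TPM (left), summed Igf1 and Igf2 TPM as a percent of summed Igfbp2 to Igfbp6 TPM (middle), and the mean transcript length of Pappa2 in bases (right), with all axes starting at 0. In each panel both libraries labelled Ghr deletion lie above the 3 controls, and in the middle panel the nearest pair is 13.5% and 12.8%. The left and right quantities were chosen after values were seen. The ratio of Pappa2 to Pappa counts and the ligand ratio to Igfbp2 to Igfbp7 are not drawn, and in both the groups overlapped.

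Other genes of the pathway were taken from lists, and those named are the ones with the smallest p in each list. Of 8 tested ligands, receptors and substrates 0 passed and 4 had a log2 fold change above 0, with a median log2 fold change of 0.06. Those with the smallest p were Grb10, an adaptor that restrains insulin and IGF receptors, with 79.9 and 66.9 CPM against 46.1, 24.9 and 59.9 CPM in controls (log2 fold change 0.75, SE 0.37), and Igf1r, the IGF1 receptor, with 178 and 221 CPM against 317, 317 and 229 CPM (log2 fold change -0.53, SE 0.27). Both had an adjusted p of 0.874 by edgeR, and for each the groups did not overlap. That is 1 of 8 in each direction, near the 10.8% higher and 12.5% lower of all genes.

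Relatives that share the IGFBP domain gave 0 calls among 10 tested of 13, and 6 were above 0, with a median log2 fold change of 0.34. Htra4, a secreted serine protease, had 2.34 and 2.45 CPM in libraries labelled Ghr deletion, against 8.27, 5.96 and 4.08 CPM in controls (log2 fold change -1.35 with SE 0.39; edgeR's adjusted p was 0.874). Crim1, a membrane protein that binds growth factors, had 32.5 and 47.7 CPM, against 25.7, 21.8 and 37.2 CPM. Of 14 tested proteases and inhibitors linked to IGFBP cleavage 0 passed and 11 were above 0, with a median of 0.41. Plg, the plasminogen gene of the liver, had 0.0454 and 0.0252 CPM, against 0.556, 0.257 and 0.331 CPM (log2 fold change -3.27 with SE 0.79; edgeR's adjusted p was 0.874), and it stands beside the liver genes above. Mmp3, a matrix protease, had 0.681 and 0.505 CPM, against 0.247, 0 and 0.154 CPM. Plg passed the low-count filter only through the controls, and Mmp3 only through the libraries labelled Ghr deletion.

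The pattern of each member over the 5 libraries was set beside those of 60 marker genes with a mean of at least 1 CPM. Likeness was the root mean square distance between values of log2(CPM + 0.5), each centred on its own mean. The nearest markers of Igfbp7 were the endothelial receptor Kdr (0.24) and the endothelial sialomucin Emcn (0.25). Those of Igfbp4 were the macrophage genes Csf1r (0.18) and Adgre1 (0.19), and those of Igfbp5 were the complement genes C1qa (0.29) and C1qb (0.33). Igfbp3 and Pappa had the basal epithelial factor Trp63 nearest (0.15 and 0.16), and lay nearest to each other of all pairs of members (0.19). Igfbp2 was nearest to the seminal vesicle genes Svs2 and Pate4 (0.40 each), and at 0.45 from Pappa2. Pappa2 had no close marker, with the smooth muscle gene Synpo2 nearest at 0.67. Stc2 was nearest to the endothelial claudin Cldn5 (0.10), and Igfbp6 to the luminal keratin Krt8 (0.26). These distances describe 5 libraries and say nothing of shared cells or control.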

How the data were processed

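Per the labels' protocols, RNA came from frozen dorsolateral prostate and libraries were made with the TruSeq Stranded Total RNA method. STAR 2.5.3a, RSEM 1.3.0, bcl2fastq 2.20.422 and build GRCm38 are listed in the submitters' processing notes. Neither annotation release nor strandedness of the counting was given in the sources. The authors deposited RSEM expected counts, which share out reads that fit several genes, per the file headers. They also deposited TPM, per the file headers, and FPKM, which was not used. The deposited other values, mean and effective transcript lengths in bases, are weighted by estimated isoform abundance.

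Groups came from sample titles. Symbols were matched for 99.5% of identifiers, and coordinates are from GENCODE M21, which holds 99.6% of them (its Igfals length, 2625 bases, differs from the 2111 in the tables). Expected counts were rounded, filtered with filterByExpr, scaled by TMM and tested with edgeR 4.0.16 (quasi-likelihood, group only, Benjamini-Hochberg over 18590 genes, threshold 0.05) in R 4.3.3. The edgeR p-values set the group difference against the spread between these libraries. SEs came from the F statistic, and intervals from the t distribution. The test was checked on simulated data. Shares were compared by exact permutation in scipy 1.17.1. Depth ran from 19517831 to 41553558 counts.

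Alternatives were other scalings and filters, DESeq2 1.42.0, limma 3.58.1 on counts or log2(TPM + 1) and log2(TPM + 0.1), length offsets, the 20 most abundant genes left out, libraries left out, and a replicate block. All 10 members are described, and of each pathway list the members with the smallest p. Members and lists were chosen with earlier results of these data known. The Igfbp7 to Igfbp5 and protease ratios, promoter motifs, transcript lengths and the use of the liver list were chosen after values were seen.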

Additional observations from a re-analysis of the deposited data

How the results depend on the processing

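Members called stayed at 0 in each direction under every alternative but the replicate block, where 1 was called higher, Igfbp7 (log2 fold change 1.14, adjusted p = 0.0286). Over all 18590 genes that fit called 552 higher and 574 lower, and it leaves 1 residual degree of freedom. Replicate number 3 occurs only among controls, so control replicate 3 does not enter the group difference in that fit. With control replicate 3 left out and no block, the log2 fold change of Igfbp7 was 1.17, and edgeR's adjusted p was 0.338. Deviations from the group means had correlations of 0.298 and 0.261 between same-numbered libraries, and of -0.298 and -0.261 between crossed ones. In a group of 2 libraries these deviations are exact opposites, so the crossed values mirror the others. The 2 numbers shared by the groups have no stated meaning, so the libraries were not taken as pairs. Counts over all genes, 0 higher and 0 lower in the main test, were 2 higher without a low-count filter, 20 higher and 61 lower by DESeq2, 2234 and 60 on log2(TPM + 1), 686 and 47 on log2(TPM + 0.1), and 0 to 15 higher and 0 to 33 lower with 1 library left out, the highest without control replicate 3. The median of all genes shifted by 0.59 with library size only, by 0.87 on log2(TPM + 1) and by 1.33 on log2(TPM + 0.1), and member values under these are relative to that shift.

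Igfbp7 stayed above 0 (0.27 to 1.37), and Igfbp5 (-1.07 to -0.15) and Igfbp6 (-1.01 to -0.03) below it, in all 18 alternatives. Signs turned, with no call in any, for Igfbp2 (0.02) and Igfbp3 (0.22) on log2(TPM + 1), Igfbp4 with length offsets (-0.16) and on log2(TPM + 0.1) (-0.07), and Igfbp3 (0.28) and Pappa (0.17) without control replicates 1 and 2 together. With 1 library left out, signs turned for Igfbp3 (-0.39 to 0.01), Igfbp4 (-0.39 to 0.60), Pappa2 (-1.81 to 0.21) and Stc2 (-0.05 to 0.43). The cause was not tested.

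Differences in share, in percentage points, ran with 1 library left out from 16.2 to 28.3 for Igfbp7, -17.5 to -8.38 for Igfbp5, -6.32 to 1.34 for Igfbp2, -3.09 to -0.0599 for Igfbp3, -2.50 to -1.09 for Igfbp4 and -4.31 to -1.36 for Igfbp6, and from 0.584 to 2.38 for the ligand ratio. Without control replicates 1 and 2 together they were 11.2 for Igfbp7, -4.59 for Igfbp5, 1.16 for Igfbp3, 0.0333 for Igfbp6, -6.78 for Igfbp2 (against -2.49) and 0.565 for the ligand ratio (against 1.48). For Igfbp4 the value was 0.0258 with mean effective lengths and 0.283 with the longest transcripts. Without Igfbp7 in the total it was 3.50 for Igfbp4, 2.22 for Igfbp3 and 9.27 for the ligand ratio; that total leaves out the Igfbp7 share, which averaged 60.2% in libraries labelled Ghr deletion and 38.0% in controls. Depth limits Igfals most, with at most 10 counts in a library.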
